A study of Mus musculus with 24 samples.

Results

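The opioid peptide precursor genes Pdyn, Penk and Pnoc and the opioid receptor genes Oprm1, Oprd1, Oprk1 and Oprl1 were followed through RNA sequencing of the mouse nucleus accumbens, the ventral striatal region best known for its part in reward. They were chosen by symbol, as the rows of the count table whose Ensembl gene ID maps to each name, and make up 7 of the 37991 genes in the table. The data hold 24 libraries in 8 groups of 3. By the labels, mRNA of 4 mice was pooled for each library, so n counts libraries. The design text of the series instead speaks of 3 mice per group, which is not reconciled with the pooling in the sources used here. Wild-type C57BL/6J mice formed 4 groups, with females and males that were either stressed or kept as controls. In the floxed experiment, C57BL/6J females and males of genotype Dnmt3a2lox/2lox, in which Cre can cut out a part of Dnmt3a bounded by loxP sites, were given AAV-GFP or AAV-CRE, adeno-associated viruses for GFP or for the recombinase Cre. All floxed mice were stressed, those with AAV-GFP included, and the promoter that drives Cre is not stated. The stress is called subchronic variable stress in the title of the series. How long it lasted and how old the mice were is not given in the sources used here, and the protocol names dorsal striatum beside nucleus accumbens in its account of the tissue punches.

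Opioid peptides are cut from larger precursor proteins and act on receptors that couple to inhibitory G proteins, which lower cAMP, open potassium channels and reduce transmitter release. In the striatum, prodynorphin is made mainly by the D1 spiny neurons of the direct pathway and proenkephalin mainly by the D2 spiny neurons of the indirect pathway. Dynorphin acting on the kappa receptor in the nucleus accumbens is known for lowering dopamine release and for aversion, whereas signalling through the mu receptor there is known for reward.

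Dnmt3a, the gene that Cre deletes, encodes an enzyme that adds methyl groups to cytosines, mostly at CpG dinucleotides, and the members with a promoter window in RefSeq (GRCm38.p6) differed widely in CpG content. Such windows, the 250 bases before a transcription start, were found for Pdyn, Oprl1, Oprd1 and Oprm1, 4 of the 7 members, with 9 windows in all. The window of Pdyn with the higher CpG count and the only window of Oprd1 are shown, with each CpG in capitals, because they hold the most CpG of the 9. No methylation was measured in this series, so these letters show where CpG sites lie and not whether they are methylated.
Pdyn, chr2:129699939-129700188, minus strand: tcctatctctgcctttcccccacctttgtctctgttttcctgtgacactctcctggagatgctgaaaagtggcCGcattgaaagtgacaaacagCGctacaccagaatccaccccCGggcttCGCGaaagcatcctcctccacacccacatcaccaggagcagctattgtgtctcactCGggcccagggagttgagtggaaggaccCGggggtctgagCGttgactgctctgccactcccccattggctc
Oprd1, chr4:132144487-132144736, minus strand: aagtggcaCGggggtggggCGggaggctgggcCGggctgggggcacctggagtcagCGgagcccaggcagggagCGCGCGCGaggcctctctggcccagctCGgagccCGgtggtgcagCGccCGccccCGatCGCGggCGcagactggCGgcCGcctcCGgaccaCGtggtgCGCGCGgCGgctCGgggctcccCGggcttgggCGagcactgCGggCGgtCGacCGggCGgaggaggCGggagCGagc
The Pdyn window held 8 CpG, and 43.0% of the 32851 RefSeq windows of the same length held at least as many. The Oprd1 window held 34, a number reached by 3.53% of windows, against a median of 6. The other Pdyn window and 2 of the 3 Oprm1 windows held 4 each, the remaining Oprm1 window held 0, and the 3 Oprl1 windows held 3, 1 and 2. The cAMP response element TGACGTCA, which reads the same on both strands, was in 508 of all windows (1.55%) and in 0 of these 9. By the annotation, Pdyn and Oprl1 lie on chromosome 2, Penk and Oprd1 on chromosome 4, Pnoc on chromosome 14, Oprm1 on chromosome 10 and Oprk1 on chromosome 1.

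The libraries of the wild-type experiment held 7116123 to 12145551 counts and those of the floxed experiment 28132563 to 59829070. Levels are in CPM, counts scaled to a common library size with TMM factors, as mean ± SD. Fold changes are log2 differences with their standard error (SE) from edgeR's quasi-likelihood test, and a gene was called where its p-value, adjusted over all genes tested, was under 0.05. Spiny neuron markers (D1, D2 and shared lists, 24 genes) were above 0 in every library. The male AAV-CRE libraries stood apart in genes of other tissues. A list of 13 markers of cortical and other excitatory neurons summed to 620, 647 and 275 CPM in them and to between 49 and 97 CPM in the other floxed libraries, with Slc17a7, a glutamate transporter of cortical neurons, at 428, 408 and 168 CPM against 1.29 to 36.0. In male AAV-CRE library 2, a list of 13 choroid plexus and ependymal markers summed to 2114 CPM against 56 to 191 in the other floxed libraries, and 11 genes shared by all spiny neurons summed to 4156 CPM against 7227 to 9235. Wild-type libraries were also uneven in choroid plexus markers, from 48 to 2698 CPM. Dnmt3a itself stood at 182, 164 and 171 CPM in male AAV-GFP and at 143, 137 and 138 CPM in male AAV-CRE libraries, a log2 difference of -0.30 (SE 0.06, adjusted p = 0.0149). In females it stood at 162, 169 and 155 CPM with AAV-GFP and at 155, 150 and 140 CPM with AAV-CRE, a log2 difference of -0.12 (SE 0.06, adjusted p = 0.829). Counts cover the whole gene and not only the deleted part.

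Compared per length, the precursors stood far above the receptors, apart from Pnoc. Levels were divided by the length of all annotated exons of a gene, in CPM per kb, with experiments kept apart. In wild-type libraries the median was 898 CPM per kb for Penk, which encodes the enkephalin precursor, 101 for Pdyn, which encodes the dynorphin precursor, and 1.08 for Pnoc, which encodes the precursor of nociceptin. Among the receptors, the median was 12.2 CPM per kb for Oprl1, the nociceptin receptor, 6.15 for Oprd1, the delta receptor, 5.47 for Oprk1, the kappa receptor, and 2.25 for Oprm1, the mu receptor. The order Penk, Pdyn, Oprl1 held without overlap between neighbours in all 8 groups. Oprk1 and Oprd1 came next, and their ranges overlapped in control females, stressed females, stressed males, female AAV-GFP and male AAV-CRE libraries. In floxed libraries the medians were 635 CPM per kb for Penk, 129 for Pdyn, 13.1 for Oprl1, 7.90 for Oprk1, 4.73 for Oprd1, 1.80 for Pnoc and 1.57 for Oprm1. Pnoc and Oprm1 were the lowest pair in every group, and Pnoc spanned 0.509 to 6.38 CPM per kb in floxed libraries. The places of Oprk1 and Oprm1 depend on the length used, since their annotated exons add up to 9151 and 8037 bases. With the longest transcript instead, the wild-type median of Oprm1 was 7.47 CPM per kb, above the 6.15 of Oprd1, and that of Oprk1 was 10.7, with ranges that overlapped those of Oprl1 (8.50 to 16.6 against 10.7 to 17.3).

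**Figure D1:**
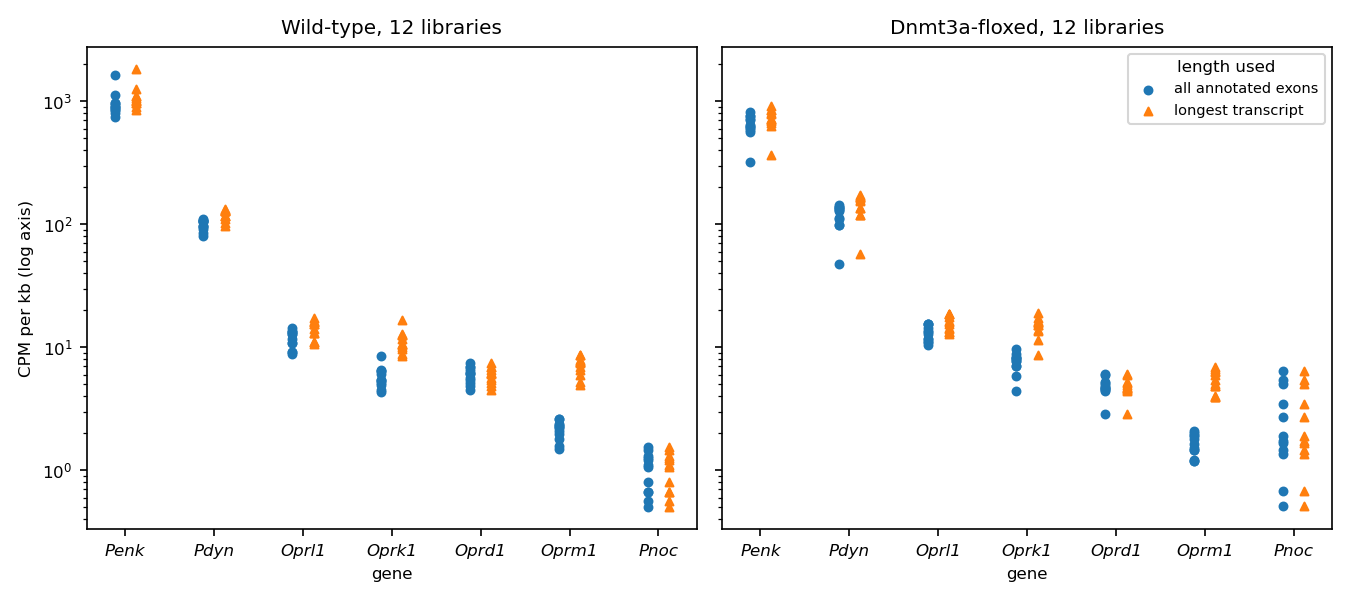
Level of each opioid gene in CPM per kb (log axis) in the wild-type and floxed libraries. Each length used, all annotated exons or the longest transcript, has 1 point per library. Penk lies highest and Pdyn second in every library, and the points of Pnoc spread most widely in the floxed libraries. Oprl1 leads the receptors by annotated exons, while Oprk1 overlaps it by longest transcript.

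Stress compared with control tests whether the opioid genes differ between stressed and unstressed wild-type mice of each sex. All 7 members passed the filter on low counts, and edgeR called 0 of 7 in females, where 0% of the 15249 genes tested were called, and 0 of 7 in males, where 0.00656% were called. DESeq2 and limma-voom also called 0 in each sex. The smallest p-values belonged to receptor genes. In stressed females Oprl1 stood higher in all 3 libraries, and in stressed males Oprd1 and Oprm1 had the lowest group means of the experiment, but none of these passed the adjustment over all genes. At an unadjusted p under 0.05 the count was 1 of 7 in females against 1.68% of all genes, and 2 of 7 in males against 2.81%. In these bulk samples, fewer cells of a type and less RNA per cell cannot be told apart.

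Among the precursors, Pdyn, the source of dynorphins, stood at 281, 231 and 307 CPM in control females and at 306, 276 and 262 CPM in stressed females. In males it stood at 310, 318 and 309 CPM in controls and at 246, 281 and 304 CPM in stressed mice. All 3 stressed male libraries lay below all 3 control males, while the female groups overlapped. The log2 difference was 0.04 (SE 0.13) in females and -0.18 (SE 0.13, 95% interval -0.45 to 0.10) in males, with an adjusted p of 1.00 in both.

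Penk, the source of enkephalins, was at 2653, 1394 and 1443 CPM in control females and at 1834, 1457 and 1225 CPM in stressed females. Control female library 1 was the highest of the 12 wild-type libraries, and without it the log2 difference turned from -0.28 (SE 0.22) to 0.09. Male values were 1590, 1400 and 1532 CPM in controls and 1589, 1311 and 1478 CPM in stressed mice, with overlapping ranges and a log2 difference of -0.05 (SE 0.22). Penk shares 233 bases of exon with the antisense gene A830012C17Rik, so reads of both cannot be told apart if strand was not used in counting, but that gene was at 0.48 to 2.06 CPM.

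Pnoc, the source of nociceptin, was the member with the lowest counts, 8 to 32 per wild-type library. Its levels in control and stressed females were 1.93 ± 1.05 and 2.01 ± 0.818 CPM (SD, n = 3 each), and in control and stressed males 2.17 ± 1.02 and 2.64 ± 0.233 CPM. The intervals of the log2 difference were wide, from -0.89 to 1.01 in females and from -0.60 to 1.19 in males, so differences within these bounds could not be told from 0.

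**Figure D2:**
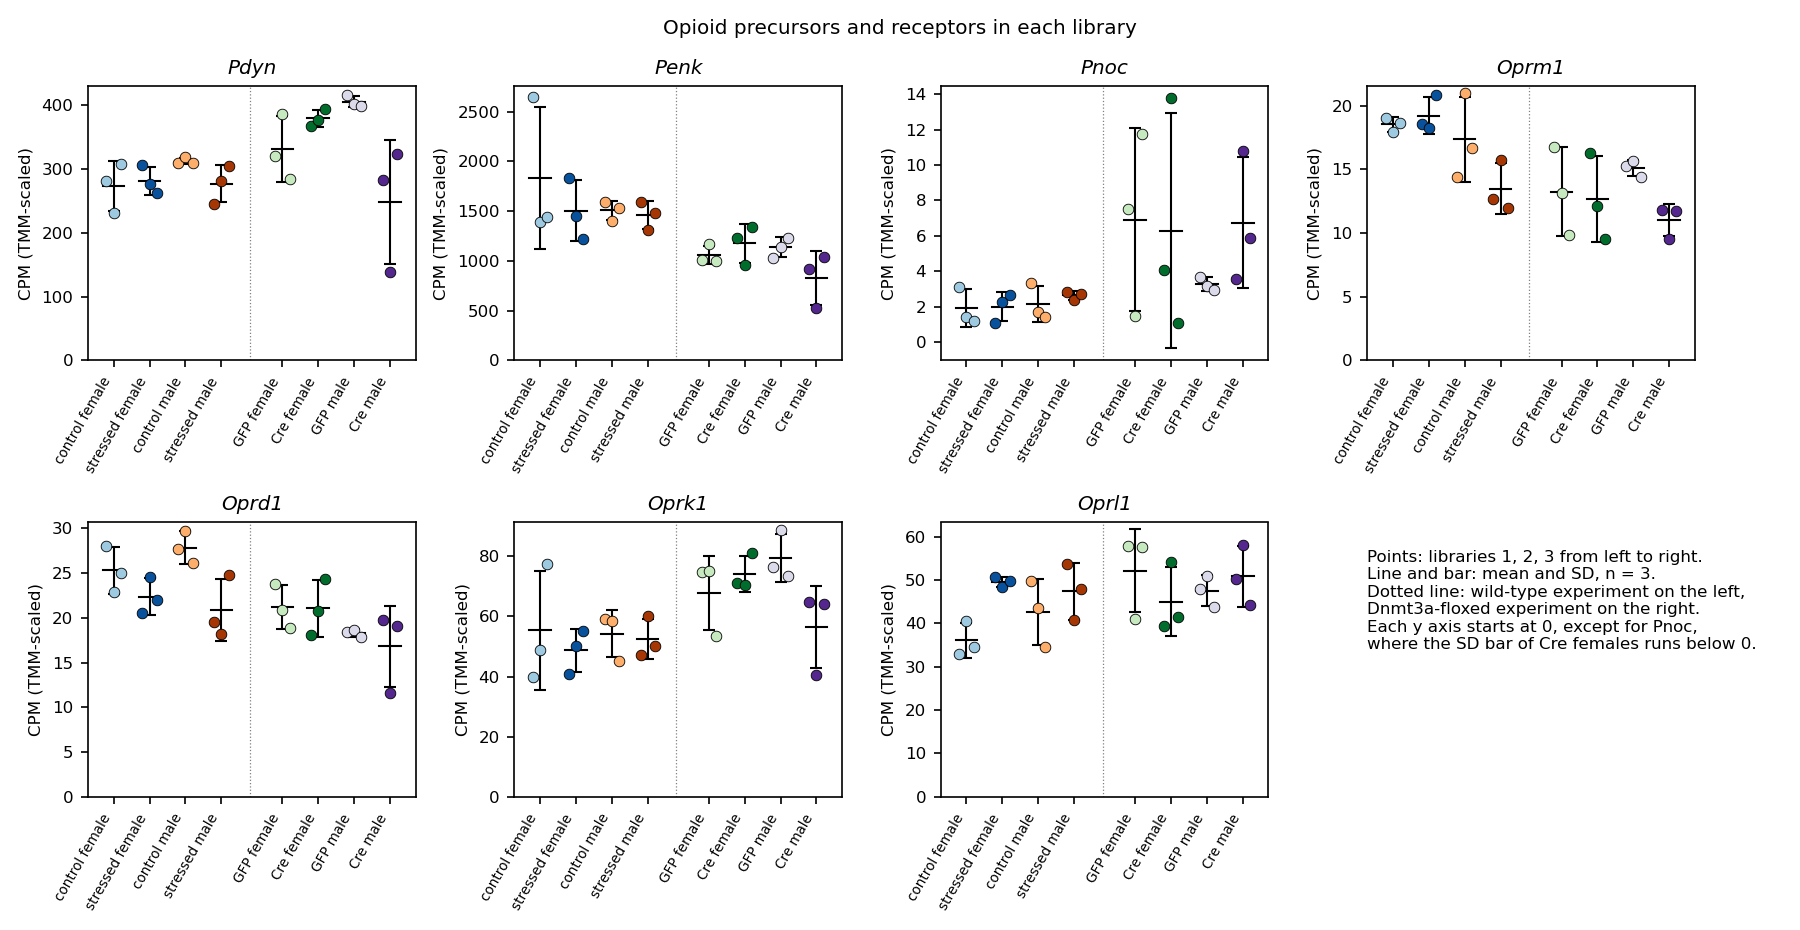
Level of each opioid gene in CPM (linear axis) in the 8 groups, with 1 point per library and the mean and SD of the 3 libraries of each group. Oprl1 of stressed females lies above all 3 control females, and Pdyn, Oprk1 and Oprm1 of male AAV-CRE libraries lie below all 3 male AAV-GFP libraries, with library 2 of the former lowest for all of them.

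Of the receptors, Oprl1, which binds nociceptin, gave the lowest p-value in females. Control females held 33.0, 40.6 and 34.6 CPM and stressed females 50.8, 48.4 and 49.7 CPM. Every stressed female library lay above every control female, which was so for 1 of 7 members and, in either direction, for 5.3% of all genes. The log2 difference was 0.46 (SE 0.16), a 1.37-fold level with a 95% interval of 1.09 to 1.74, with an unadjusted p of 0.0121 and an adjusted p of 1.00 by edgeR. The glutamate transporter gene Slc17a7 was also apart in these libraries, at 41.0, 109 and 29.9 CPM in control females and 9.89, 21.7 and 26.6 CPM in stressed females. The summed cortical markers overlapped, at 153, 227 and 121 CPM against 85.6, 117 and 133 CPM. With them as a covariate the log2 difference of Oprl1 was 0.43 (SE 0.21). In males the groups overlapped, at 49.7, 43.6 and 34.6 CPM in controls and 53.7, 40.7 and 47.8 CPM in stressed mice, a log2 difference of 0.16 (SE 0.16). Control females had the lowest mean, 36.1 ± 4.02 CPM, against 42.6 ± 7.60 in control males, 47.4 ± 6.53 in stressed males and 49.6 ± 1.17 in stressed females (SD, n = 3 each).

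Oprd1, the delta receptor that binds enkephalins, was at 27.6, 29.7 and 26.1 CPM in control males and at 19.5, 18.2 and 24.8 CPM in stressed males. These groups did not overlap, nor did those of Pdyn, so that 2 of 7 members were apart in males against 7.91% of all genes. The log2 difference of Oprd1 was -0.42 (SE 0.15), with a 95% interval of -0.74 to -0.09 and an adjusted p of 1.00. Female values overlapped, at 28.1, 22.8 and 25.1 CPM in controls and 20.6, 24.6 and 22.0 CPM in stressed mice, with a log2 difference of -0.18 (SE 0.15).

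Oprm1, the mu receptor and main target of morphine, was at 14.4, 21.0 and 16.7 CPM in control males and at 12.7, 15.7 and 11.99 CPM in stressed males. The stressed males held the 2 lowest of the 12 wild-type values, yet the groups overlapped, with a log2 difference of -0.37 (SE 0.16, adjusted p = 1.00). A list of 5 striosome markers, from the striatal compartment that is rich in mu receptor, was also lower on average in stressed than in control males. It summed to 544, 472 and 589 CPM in control males and to 443, 415 and 454 CPM in stressed males, which did not overlap. Within the groups the order differed, since the control male library lowest in this list was the highest in Oprm1 and Oprd1. The part of the list in these values was not tested. In females the values were 19.1, 17.9 and 18.7 CPM in controls and 18.6, 18.2 and 20.9 CPM in stressed mice, which overlapped. Oprm1 shares 96 bases of exon with Ipcef1 on the opposite strand. Reads there cannot be told apart if strand was not used, which could affect its count.

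Oprk1, the kappa receptor that binds dynorphins, varied as much among controls as between groups. Control females held 39.7, 48.9 and 77.5 CPM and stressed females 40.9, 50.0 and 55.1 CPM. In males the values were 59.2, 58.6 and 45.1 CPM in controls and 47.3, 60.1 and 50.1 CPM in stressed mice. Both comparisons overlapped, with log2 differences of -0.19 (SE 0.22) and -0.05 (SE 0.22), and without control female library 3 the female value turned to 0.14.

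Averaged over the sexes, 0 of 7 members were called, against 0.0131% of all genes, and 2 of 7 had an unadjusted p under 0.05, against 3.21%. These were Oprd1, with a mean log2 difference of -0.30 (SE 0.11), and Oprl1, with 0.31 (SE 0.11), both at an adjusted p of 1.00. The difference between the sexes in the response to stress, female minus male, was tested as an interaction. edgeR called 0 of 7 members, against 0% of all genes, and 0 of 7 were under an unadjusted p of 0.05, against 1.19%. Oprm1 had the smallest p-value of the members, with an interaction of 0.42 (SE 0.23, adjusted p = 1.00), and Oprl1 had 0.30 (SE 0.22). DESeq2 and limma-voom called 0 members in both of these comparisons.

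Female and male wild-type libraries were also compared over both treatments. Again 0 of 7 members were called by edgeR, DESeq2 or limma-voom, against 0.0393% of all genes by edgeR. Oprm1 was the 1 of 7 with an unadjusted p under 0.05, against 5.03% of all genes, and stood higher in females, by 0.31 on the log2 scale (SE 0.12, adjusted p = 0.971). In controls Oprm1 averaged 18.5 ± 0.585 CPM in females and 17.3 ± 3.33 CPM in males, and in stressed mice 19.2 ± 1.44 and 13.5 ± 2.00 CPM (SD, n = 3 each). The lower male mean thus came mainly from the stressed males. In floxed libraries, where all mice were stressed, the same comparison called 0 of 7 members, against 0.0682% of all genes. There Oprm1 differed by 0.01 (SE 0.15), 0 of 7 members had an unadjusted p under 0.05, against 6.68%, and the smallest p-value was that of Oprd1, with 0.27 (SE 0.13, adjusted p = 0.778).

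**Figure D3:**
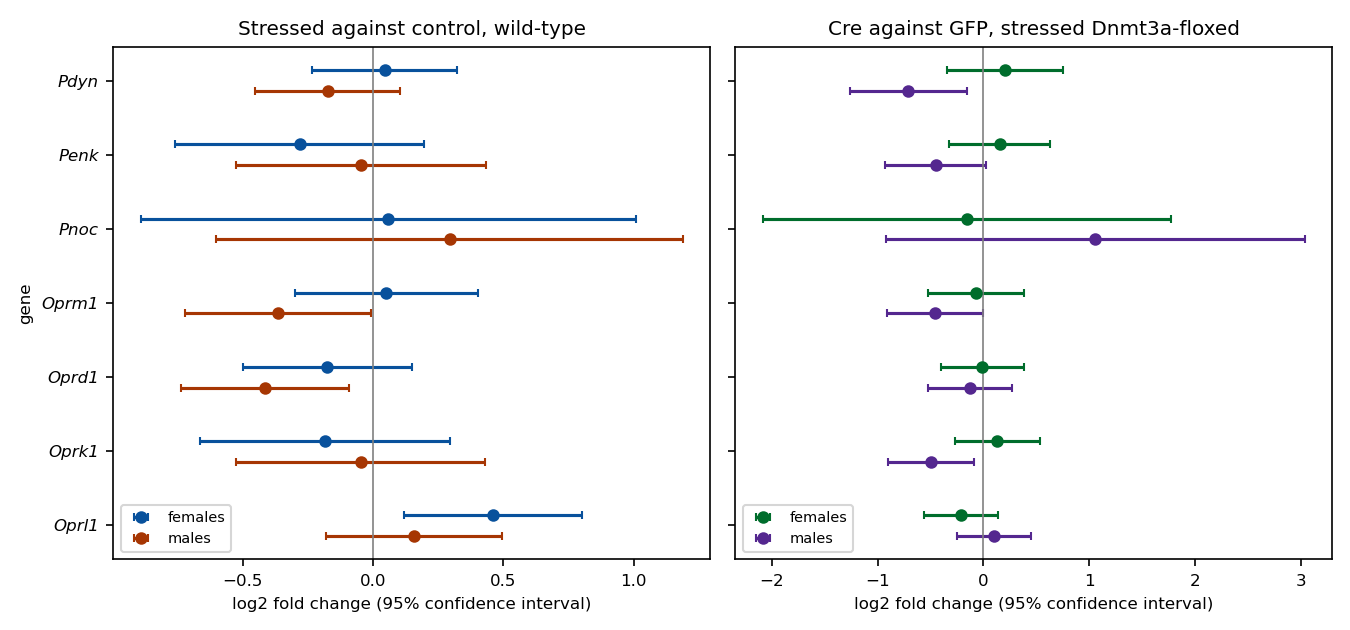
Log2 difference of each opioid gene with its 95% interval for stress (wild-type) and for Cre (floxed), in females and males. The interval of Oprl1 in stressed females lies above 0, those of Oprd1 and Oprm1 in stressed males and of Pdyn, Oprk1 and Oprm1 in male AAV-CRE libraries lie below 0, and those of Pnoc are the widest.

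AAV-CRE compared with AAV-GFP tests whether opioid genes differ after Cre delivery to floxed mice that were all stressed. In females edgeR called 0 of 7 members, against 0% of the 17597 genes tested, and 0 of 7 had an unadjusted p under 0.05, against 5.96%. The female groups overlapped for all 7 members, whereas 11.5% of all genes did not overlap. In males Pdyn, Oprk1, Oprm1 and Penk had lower means with AAV-CRE, and edgeR again called 0 of 7, against 4.96% of all genes. DESeq2 called 2 of 7 in males, Pdyn (adjusted p = 0.0423) and Oprk1 (adjusted p = 0.0447), against 11.7% of all genes by that tool, and limma-voom 0, against 4.97%, and both tools called 0 in females. At an unadjusted p under 0.05 the male count was 3 of 7, against 24.8% of all genes, and the same 3 members, Pdyn, Oprk1 and Oprm1, did not overlap between the groups, against 29.4% of all genes. The median log2 difference of the members in males was -0.45, against 0.00 for all genes. The D1 markers and the markers shared by all spiny neurons were low beside them. The 7 D1 markers summed to 757, 449 and 798 CPM in male AAV-CRE libraries and to 852, 854 and 806 CPM in male AAV-GFP libraries. The 11 shared markers summed to 7421, 4156 and 7781 CPM against 8015, 8324 and 8555 CPM, so that neither list overlapped between the groups. The 6 D2 markers did overlap, at 463 to 742 CPM in male AAV-CRE and 679 to 735 CPM in male AAV-GFP libraries.

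Pdyn stood at 416, 402 and 398 CPM in male AAV-GFP libraries and at 283, 138 and 323 CPM in male AAV-CRE libraries. All AAV-CRE males lay below all AAV-GFP males, and library 2 was far below the other 2. The log2 difference was -0.71 (SE 0.25), a 0.611-fold level with a 95% interval of 0.417 to 0.895 and an adjusted p of 0.120 by edgeR. Without library 2, which was high in choroid plexus markers, it was -0.42 (SE 0.11, adjusted p = 0.0694). With the summed choroid plexus markers as a covariate, a fit chosen with the male libraries known to differ in them, it was -0.08, and with the cortical markers as a covariate -0.09. The choroid plexus markers were highest by far in library 2, and the cortical markers were high in all male AAV-CRE libraries. Neither fit can thus separate its markers well from Cre in males. In females the values were 321, 387 and 284 CPM with AAV-GFP and 368, 377 and 394 CPM with AAV-CRE, which overlapped, and the log2 difference was 0.20 (SE 0.25, adjusted p = 0.926).

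Penk, made mainly by the other class of spiny neurons, was at 1031, 1145 and 1231 CPM in male AAV-GFP libraries and at 918, 528 and 1044 CPM in male AAV-CRE libraries. The groups overlapped and library 2 was again the lowest. The log2 difference was -0.45 (SE 0.21, adjusted p = 0.221), and -0.21 (adjusted p = 0.418) without that library. In females Penk was at 1013, 1167 and 998 CPM with AAV-GFP and at 1232, 961 and 1337 CPM with AAV-CRE, a log2 difference of 0.15 (SE 0.21).

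Pnoc was the most uneven member, with 46 to 658 counts per floxed library. Female AAV-GFP libraries held 7.52, 1.48 and 11.7 CPM and female AAV-CRE libraries 4.07, 13.8 and 1.10 CPM. Male AAV-GFP libraries held 3.70, 3.16 and 2.96 CPM and male AAV-CRE libraries 3.58, 10.8 and 5.86 CPM. High libraries were found in 3 of the 4 groups, and the log2 difference was -0.16 (SE 0.86) in females and 1.06 (SE 0.88) in males, with adjusted p of 0.988 and 0.492. The 4 libraries highest in Pnoc were also the 4 highest in a list of markers of septum, pallidum and hypothalamus, which summed to 104, 66 and 167 CPM in female AAV-GFP, 82, 173 and 59 CPM in female AAV-CRE and 78, 145 and 78 CPM in male AAV-CRE libraries. Among the other 8 the order was not the same, since male AAV-GFP libraries summed to 70, 81 and 57 CPM. In wild-type libraries the match was only partial. There the library highest in Pnoc, control male library 1 at 3.34 CPM, summed to 79.9 CPM in the list, which reached 100 CPM in a stressed female library. Of these 13 markers, up to 5 were at 0 in a library. Their part in the Pnoc values was not tested.

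**Figure D4:**
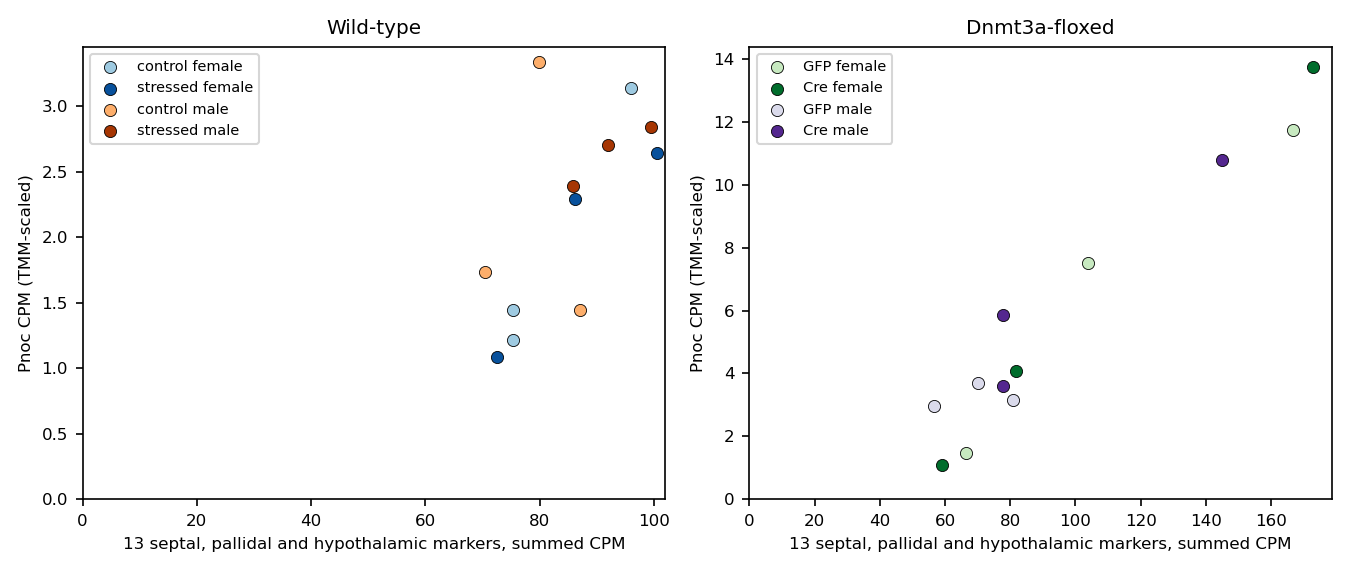
Pnoc in CPM against the summed CPM of the septal, pallidal and hypothalamic markers, 1 point per library, for the wild-type and floxed experiments. In the floxed experiment the 4 libraries highest in Pnoc are also the 4 highest in the markers. In the wild-type experiment the library highest in Pnoc is not among the 4 highest in the markers.

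Among the receptors, Oprk1 was at 76.6, 88.6 and 73.5 CPM in male AAV-GFP libraries and at 64.8, 40.6 and 64.0 CPM in male AAV-CRE libraries. The groups did not overlap and library 2 was the lowest. The log2 difference was -0.50 (SE 0.18, adjusted p = 0.132), and -0.31 (adjusted p = 0.279) without library 2. In females Oprk1 was at 74.6, 75.1 and 53.6 CPM with AAV-GFP and at 71.2, 70.3 and 81.0 CPM with AAV-CRE, which overlapped, a log2 difference of 0.13 (SE 0.18).

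Oprm1 stood at 15.2, 15.6 and 14.4 CPM in male AAV-GFP libraries and at 11.8, 9.55 and 11.7 CPM in male AAV-CRE libraries. These groups did not overlap, and here library 2 lay closer to the other 2. The log2 difference was -0.46 (SE 0.21, adjusted p = 0.199), and -0.36 (adjusted p = 0.440) without library 2. Ipcef1, which overlaps Oprm1 on the opposite strand, was higher in the latter, at 25.8, 24.4 and 22.8 CPM against 50.4, 56.6 and 30.7 CPM. Female Oprm1 values overlapped, at 16.8, 13.1 and 9.81 CPM with AAV-GFP and 16.3, 12.1 and 9.55 CPM with AAV-CRE, with a log2 difference of -0.07 (SE 0.21).

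Oprd1 was at 18.4, 18.6 and 17.8 CPM in male AAV-GFP libraries and at 19.7, 11.6 and 19.1 CPM in male AAV-CRE libraries. Only library 2 lay below the AAV-GFP range, and without it the log2 difference turned from -0.13 (SE 0.18) to 0.09. Oprl1 overlapped in both sexes, at 47.5 ± 3.59 and 50.8 ± 6.98 CPM in AAV-GFP and AAV-CRE males and at 52.2 ± 9.59 and 45.0 ± 8.05 CPM in females (SD, n = 3 each). Its log2 differences were 0.10 (SE 0.16) in males and -0.22 (SE 0.16) in females.

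Averaged over the sexes, edgeR, DESeq2 and limma-voom called 0 of 7 members for Cre, against 1.42% of all genes by edgeR, and 0 of 7 had an unadjusted p under 0.05, against 14.2%. The difference between the sexes in the response to Cre, female minus male, was 0.91 for Pdyn (SE 0.35, adjusted p = 0.230), 0.63 for Oprk1 (SE 0.26, adjusted p = 0.252) and 0.60 for Penk (SE 0.30, adjusted p = 0.330). All 3 tools called 0 of 7 members in this interaction, against 0.0114% of all genes by edgeR. At an unadjusted p under 0.05 the count was 2 of 7, Pdyn and Oprk1, against 17.5% of all genes. Without male AAV-CRE library 2 the interaction was 0.62 for Pdyn (adjusted p = 0.135) and 0.43 for Oprk1 (adjusted p = 0.363).

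Because spiny neuron genes as a whole were low in male AAV-CRE library 2, the precursors were also set against markers of the neurons that make them, a ratio chosen after the values were seen. Pdyn amounted to 48.8%, 47.1% and 49.4% of the summed level of 7 D1 markers in male AAV-GFP libraries and to 37.4%, 30.7% and 40.5% in male AAV-CRE libraries. All AAV-CRE values lay below all AAV-GFP values. An exact two-sided permutation test of the means, 48.4% and 36.2%, gave p = 0.1, the smallest that 3 against 3 libraries allow. That value is fixed once the groups do not overlap, so the test adds nothing to the lack of overlap. In females the ratio was 44.5%, 44.2% and 37.7% with AAV-GFP and 44.8%, 47.3% and 41.7% with AAV-CRE, which overlapped. Penk amounted to 150%, 169% and 167% of 6 D2 markers in male AAV-GFP libraries and to 127%, 114% and 141% in male AAV-CRE libraries, again without overlap (exact permutation p = 0.1). Of these markers, Drd2 stood at 193, 196 and 216 CPM in male AAV-GFP and at 174, 93.2 and 197 CPM in male AAV-CRE libraries. Adora2a stood at 250, 258 and 270 CPM against 261, 117 and 266 CPM. Set against Drd2 alone or Adora2a alone, Penk overlapped between these male groups, so the lack of overlap holds for the summed list only. The part of the other D2 markers in this ratio was not tested. The female ranges of this ratio overlapped, at 156%, 166% and 149% against 156%, 147% and 167%. Relative to the 11 shared spiny neuron markers, Pdyn was at 5.19%, 4.83% and 4.66% in male AAV-GFP and at 3.81%, 3.32% and 4.15% in male AAV-CRE libraries, while Penk, Oprk1 and Oprm1 overlapped between these groups. The ratio of Pdyn to Penk, both per length, was 14.8% to 22.8% in floxed libraries and 6.00% to 12.9% in wild-type libraries, given side by side with no test, since the experiments differ in genotype, virus and depth at once and these cannot be told apart.

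**Figure D5:**
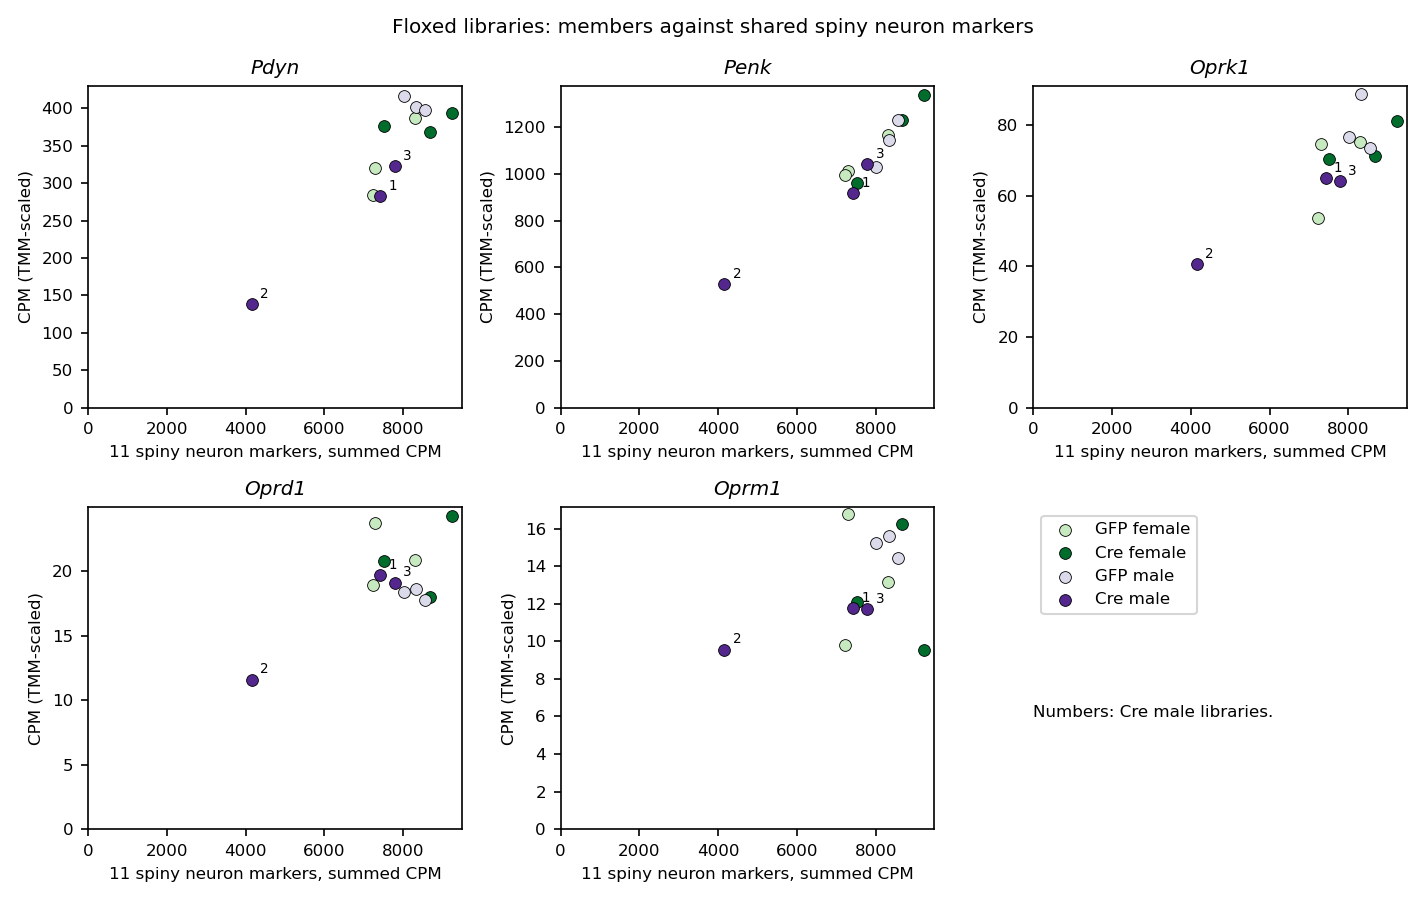
Opioid gene levels in CPM against the summed CPM of spiny neuron markers in the floxed libraries, 1 point per library. Male AAV-CRE library 2 lies at the lowest marker level, 4156 CPM for the 11 shared markers, and at the lowest level of Pdyn, Penk, Oprk1 and Oprd1.

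Other genes of opioid signalling were followed as a list of 54 genes, which hold the remaining precursor, Pomc, enzymes that process precursors or break down peptides, G protein subunits, regulators of receptor desensitisation, effectors, and regulators of precursor transcription. All 54 were tested in each comparison, and Pomc was at 0.507 to 1.90 CPM over all libraries. In stressed females, stressed males, their mean and their difference, edgeR called 0 of 54, as did DESeq2 and limma-voom, with 3, 4, 4 and 0 genes at an unadjusted p under 0.05, against 1.68%, 2.81%, 3.21% and 1.19% of all genes. The gene of smallest p-value was Kcnj5, a potassium channel subunit, in females (log2 0.67, SE 0.28), Fosb, a transcription factor of the AP-1 family, in males (-0.71, SE 0.20) and in the mean (-0.56, SE 0.14), and Ace, a peptidase, in the difference (1.91, SE 0.95), with an adjusted p of 1.00 for each. In the comparison of wild-type sexes 0 of 54 were called by the 3 tools and 2 were under the unadjusted threshold, against 5.03% of all genes, with the smallest p-value for Kcnj6, another potassium channel subunit (0.78, SE 0.21, adjusted p = 0.969).

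For Cre in females 0 of the 54 were called by any of the 3 tools, with 4 genes at an unadjusted p under 0.05, against 5.96% of all genes, and Fosb at the smallest p-value (0.54, SE 0.16, adjusted p = 0.630). In males 5 of 54 rose and 1 fell, or 11.1% against 4.96% of all genes. DESeq2 called 13, where it called 11.7% of all genes, and limma-voom 7, where it called 4.97%. An unadjusted p under 0.05 was found for 20 of 54, against 24.8% of all genes. The 4 of smallest p-value were Adcy1, a calcium-stimulated adenylyl cyclase, with a log2 difference of 0.81 (SE 0.13, adjusted p = 0.00991), Kcnj9, a potassium channel subunit that inhibitory receptors open, with 0.80 (SE 0.15, adjusted p = 0.0187), Pcsk1n, which encodes an inhibitor of a precursor-processing protease, with 1.72 (SE 0.31, adjusted p = 0.0189), and Gnaz, an inhibitory G protein subunit, with 0.30 (SE 0.07, adjusted p = 0.0277). Adcy1 stood at 209, 227 and 218 CPM in male AAV-GFP and at 459, 388 and 297 CPM in male AAV-CRE libraries, and Kcnj9 at 25.4, 27.1 and 26.7 CPM against 48.8, 56.0 and 32.6 CPM. For both, male AAV-CRE library 3, the one with the fewest cortical markers of these 3, was the lowest of its group. This order rests on single libraries, and the part of cortical tissue in the result was not tested. With the cortical markers as a covariate, edgeR called 0 of all 17597 genes, the list included. These markers were far higher in every male AAV-CRE library than in any other floxed library. The fit can thus hardly separate them from Cre in males, and no conclusion is drawn from the lost calls. In that fit the log2 difference was 0.29 (SE 0.28) for Adcy1, 0.18 (SE 0.34) for Kcnj9, 0.24 (SE 0.17) for Gnaz and 2.46 (SE 0.73) for Pcsk1n. Pcsk1n stood at 44.6, 29.4 and 28.2 CPM in male AAV-GFP and at 81.4, 124 and 130 CPM in male AAV-CRE libraries, and at 42.7, 53.7 and 94.0 CPM against 107, 141 and 123 CPM in females, without overlap in either sex. The count of the list was 2, 0 and 1 without male AAV-GFP library 1, 2 or 3, and 2, 2 and 10 without male AAV-CRE library 1, 2 or 3. Over all genes the count moved in the same way, from 872 to 246, 93 and 165, and to 318, 341 and 1303.

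In the mean over the sexes, Pcsk1n (1.34, SE 0.22, adjusted p = 0.0242) and Adcy1 (0.44, SE 0.09, adjusted p = 0.0407) rose with Cre, 2 of 54, against 1.42% of all genes. DESeq2 called 3, against 4.2% of all genes by that tool, and limma-voom 2, against 1.09%, and 11 of 54 passed the unadjusted threshold, against 14.2%. Leaving out any 1 of 11 of the 12 floxed libraries lowered the edgeR count to 0 or 1. In the difference between the sexes 0 of 54 were called by edgeR and by limma-voom and 4 by DESeq2, which called 3.45% of all genes, with 16 at an unadjusted p under 0.05, against 17.5% of all genes. The smallest p-value was that of Adcy1 (-0.74, SE 0.18, adjusted p = 0.106). Between floxed sexes 0 of 54 were called by the 3 tools, with 9 at an unadjusted p under 0.05, against 6.68% of all genes, and Fosb at the smallest p-value (0.45, SE 0.11, adjusted p = 0.364).

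The genes whose levels were most like those of each member were found by the correlation of log2 CPM over the 12 libraries of each experiment, among 13043 genes, ranked by the lower r of the experiments. These are descriptions, since libraries share depth and the share of neighbouring tissue. For Pdyn they were Serpina9 (0.82), Cartpt (0.79), which encodes another accumbens neuropeptide, and Rgs8 (0.75). For Penk they were Cacng4 (0.93), Mras (0.92) and Baiap2 (0.92), the highest values of any member. Pnoc was most like Hapln4 (0.78), Lnx1 (0.76) and C77080 (0.72). Oprk1 was most like Mme (0.90), which encodes neprilysin, an enzyme that degrades enkephalins, and like Grik2 (0.87) and Lrrc40 (0.87). Oprm1 came with Sorcs3 (0.82), Zbtb20 (0.79) and Med12l (0.79), and Oprl1 with Fbxo9 (0.81), Camk2g (0.81) and Mrgpre (0.81). Oprd1 came with Pde10a (0.79), a phosphodiesterase of spiny neurons, Itga9 (0.77) and Rxrg (0.75), but in floxed libraries these rested on male AAV-CRE library 2. Without it the floxed r fell to 0.06 for Pde10a, 0.30 for Itga9 and 0.27 for Rxrg. For Pdyn the floxed r without that library was 0.57 for Serpina9, 0.48 for Cartpt and 0.56 for Rgs8. For Penk it was 0.87 for Cacng4, 0.66 for Mras and 0.72 for Baiap2. For Oprk1 it was 0.73 for Mme, 0.82 for Grik2 and 0.85 for Lrrc40. No wild-type r was computed without a single library. There Penk was highest by far in control female library 1 and Oprk1 in control female library 3.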

How the data were processed

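The authors deposited raw read counts of Ensembl genes, not scaled, for mRNA libraries of mouse nucleus accumbens. The submitters' processing notes list Bowtie2 2.1.0, TopHat2 2.0.9, HTSeq 0.6.0 and the builds NCBIM37 and mm9, and whether strand was used in counting is not given in the sources used here. Symbols, exon lengths and overlaps came from a later annotation (GENCODE, GRCm38) by Ensembl ID, with a symbol for 32919 IDs and none for 5072, and no coordinates of the count table are given. The members and gene lists were chosen with earlier results of these data known.

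Within each experiment, counts were filtered with filterByExpr (15249 wild-type and 17597 floxed genes tested), scaled with TMM and fitted with edgeR 4.0.16 (robust quasi-likelihood, 4 group means) in R 4.3.3, with Benjamini-Hochberg adjustment over all genes tested. The script was tested on simulated data. No fold change or test was computed between the experiments. DESeq2 1.42.0, limma-voom (limma 3.58.1), DESeq2 size factors in edgeR (RLE), no filter, 2 groups only, a replicate block, cortical or choroid plexus markers as a covariate, and leaving out each library were alternatives. Replicates of a group differed by more than sampling noise. The labels call the libraries independent biological replicates.

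In wild-type females, control and stressed libraries of the same number deviated together (correlation 0.33 to 0.59 in each pair), the only comparison where each pair was above 0.1. All members were named in every comparison. Of the pathway list, called genes were named, up to 4 of smallest p, or otherwise the 1 of smallest p.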

Additional observations from a re-analysis of the deposited data

How the results depend on the processing

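edgeR called 0 of 7 members in all 10 comparisons, and the alternatives also gave 0, except that DESeq2 gave 2 for Cre in males (Pdyn and Oprk1). The replicate block gave 0 members in every stress and Cre comparison, and changed no call of a member. It was not run for the sex comparisons, in which number and sex are nested. With it, Oprl1 in stressed females had a log2 difference of 0.46 (SE 0.12, adjusted p = 0.695). In wild-type males same-numbered libraries correlated at 0.086 to 0.341, each above the pairs of unlike number, which ran from -0.28 to 0.07. Over all genes, the block gave 5 called for stress in females, 4 in males and 13 in the mean. Without it the counts were 0, 1 and 2. Same-numbered libraries correlated at -0.45 to 0.09 in floxed females and -0.11 to 0.11 in floxed males, so the floxed libraries share only a number. For the 54 pathway genes, an alternative added after seeing the data, the block left 1 called for Cre in males and 0 in the mean, with 191 and 34 called over all genes.

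Of 1344 alternative fits over 70 pairs of a member and a comparison, 1262 kept the direction and the side of the threshold, and 80 changed sign, in 37 pairs. Since edgeR called no member, no sign change could concern a called gene, and the cause of the changes was not tested. With cortical markers as a covariate, values turned to -0.11 for Pdyn (stress, females), 0.016 for Oprd1 (wild-type sexes), -0.21 for Oprl1 (Cre, males), 0.053 for Pdyn (Cre, mean), -0.077 for Oprm1 and 0.0068 for Oprl1 (Cre by sex), -0.056 for Pdyn, -0.15 for Oprm1 and 0.089 for Oprl1 (floxed sexes). With choroid plexus markers as a covariate they turned to 0.0071 for Pnoc (stress by sex), 0.034 for Oprd1 (Cre, females), 0.069 for Penk, -0.26 for Pnoc, 0.29 for Oprd1 and -0.19 for Oprl1 (Cre, males), 0.11 for Pdyn, 0.14 for Penk, -0.27 for Pnoc, 0.16 for Oprd1 and 0.063 for Oprk1 (Cre, mean), -0.26 for Oprd1 (Cre by sex), -0.16 for Pdyn, -0.066 for Penk, -0.067 for Oprm1, -0.14 for Oprk1 and 0.12 for Oprl1 (floxed sexes). With limma-voom they turned to -0.13 for Pnoc and -0.0095 for Oprm1 (floxed sexes).

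Leaving out 1 library at a time, 52 values changed sign. For Oprd1 they ran over -0.099 to 0.25 (Cre by sex), -0.13 to 0.087 (Cre, females), -0.26 to 0.086 (Cre, males), -0.13 to 0.037 (Cre, mean) and -0.063 to 0.054 (wild-type sexes). For Oprk1 they ran over -0.013 to 0.21 (Cre, females), -0.011 to 0.16 (floxed sexes), -0.21 to 0.048 (wild-type sexes), -0.35 to 0.17 (stress by sex), -0.38 to 0.14 (stress, females), -0.16 to 0.024 (stress, males) and -0.20 to 0.049 (stress, mean). For Oprl1 they ran over -0.0095 to 0.19 (Cre, males) and -0.093 to 0.051 (floxed sexes). For Oprm1 they ran over -0.30 to 0.14 (Cre, females), -0.10 to 0.095 (floxed sexes) and -0.013 to 0.088 (stress, females). For Pdyn they ran over -0.064 to 0.14 (stress, females). For Penk they ran over -0.028 to 0.24 (wild-type sexes), -0.40 to 0.12 (stress by sex), -0.45 to 0.086 (stress, females), -0.11 to 0.025 (stress, males) and -0.25 to 0.027 (stress, mean). For Pnoc they ran over -1.43 to 0.46 (Cre, females), -0.19 to 0.76 (Cre, mean), -0.16 to 0.73 (floxed sexes), -0.68 to 0.29 (stress by sex) and -0.19 to 0.60 (stress, females).

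Pnoc had the lowest counts, 8 to 32 per wild-type library against 111 or more for every other member. Its SE was 0.44 and 0.42 for stress and, at 46 to 658 counts, 0.86 and 0.88 for Cre, so greater depth did not go with a narrower interval.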
